A study of Homo sapiens with 6 samples.

Results

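The genes described here encode thioredoxin and its partners, 5 peroxiredoxins and the cytosolic superoxide dismutase, which together remove peroxides and superoxide and keep protein thiols reduced. They were chosen as 10 gene symbols, of which 9 are rows of the deposited table of 11911 genes: TXN, TXNIP, TXNRD1, PRDX1, PRDX2, PRDX3, PRDX5, PRDX6 and SOD1. HMOX1, the remaining symbol, is not analysed here. RNA was sequenced from RS4;11, a human cell line established from acute lymphoblastic leukemia of B-cell precursors, with a KMT2A::AFF1 fusion. The sample titles name 3 libraries with asparagine and 3 without it, and RNA was taken 16 hours after withdrawal. The group without asparagine is called depleted here. The labels enter the same asparagine-free medium with dialyzed serum for all 6 samples, so whether the group with asparagine had dialyzed serum too is not stated. The table's column names for the depleted group carry an abbreviation that may stand for asparaginase, which the labels do not settle. All samples are the same cell line, and nothing in the labels says that the libraries of a group came from separate cultures, and the p-values cover no more than the variation among these libraries, which may be technical.

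Thioredoxin is a small protein that reduces disulfides in other proteins. It is itself reduced by thioredoxin reductase with electrons from NADPH, and TXNIP binds reduced thioredoxin and blocks it. Peroxiredoxins reduce hydrogen peroxide and organic peroxides, and most of them are returned to their reduced form by thioredoxin. PRDX1 is generally among the most abundant of these enzymes, in lymphoid cells too, and many genes of the system are known targets of the transcription factor NRF2.

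The libraries held 29971364 to 51127073 reads in the table. Of 10 marker genes of B-cell precursor leukemia, 9 were in the table, and their summed level was 3924 to 4227 normalized CPM (read counts scaled by the authors in a way not stated) with asparagine, against 2998 to 3998 in the depleted group. Of 8 myeloid markers the table held 2, CSF1R and ITGAM, with sums of 32.1 to 33.3 and 17.5 to 31.0 CPM. Of 5 fibroblast markers it held 1, COL1A1, with 3.61 to 4.47 and 0.938 to 2.35 CPM, and of 6 T-cell and 6 erythroid markers it held 0. The first depleted library differed from the other two (Pearson r across genes 0.940 and 0.933, against 0.996 between depleted libraries 2 and 3), and the difference ran along transcript GC content. With the libraries with asparagine, depleted library 1 had r = 0.927 to 0.928, and depleted libraries 2 and 3 had 0.845 to 0.882. In the highest of 5 GC classes the median gene lay at -0.86 and -0.89 (log2 difference from the average of the libraries with asparagine) in depleted libraries 2 and 3 and at -0.09 in library 1, and in the lowest class at 0.81, 0.87 and 0.03. Where leaving out library 1 or a correction for GC content changed a call or a direction, or moved the value by over 1.5 times, for a gene described in the text, the altered value is given beside it.

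Without asparagine, RNA of the thioredoxin inhibitor rose while that of thioredoxin, its reductase, 4 of the 5 peroxiredoxins and SOD1 fell. Of the 9 genes, all of which passed the filter on low values, 7 were lower and 1 was higher by limma's moderated linear model (Benjamini-Hochberg adjusted p under 0.05 over 11892 genes). Over all genes tested, 26.2% were lower and 25.1% higher. Of the 9 genes, 5 were lower with both an adjusted p under 0.05 and group means at least 2-fold apart, against 11.8% of all genes. The median log2 fold change, depleted minus with asparagine, was -1.06 over the 9 genes and 0.01 over all genes. In the same 7 genes every depleted library lay below every library with asparagine, a pattern that 30.8% of all genes showed, and for 1 gene every depleted library lay above (30.2% of all genes). The GC correction gave 7 lower and 1 higher as well (34.3% and 35.2% of all genes), and the fit without depleted library 1 gave 8 lower and 1 higher (41.3% and 40.5%). Each fold is relative to the scaling of the libraries, and in bulk RNA fewer cells with a transcript and less of it per cell cannot be told apart.

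**Figure D1:**
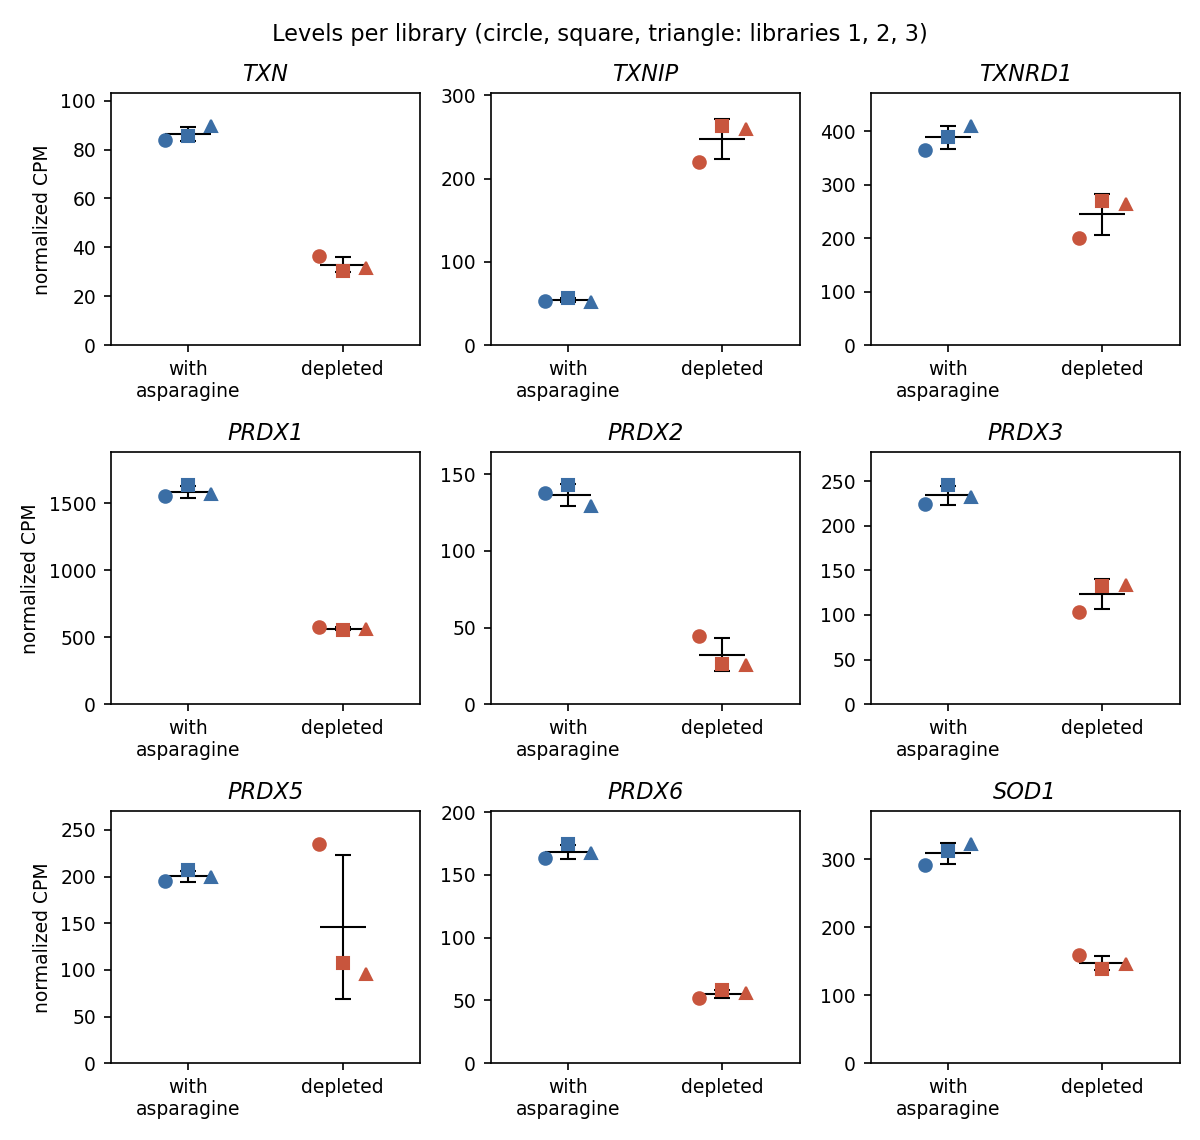
Normalized CPM (y axis, from 0) of the 9 genes in the 3 libraries with asparagine and the 3 depleted libraries. Circles, squares and triangles are libraries 1, 2 and 3, horizontal bars the mean and error bars the SD. TXNIP is the gene with higher values in the depleted libraries, and PRDX5 is the gene whose groups overlap, because depleted library 1 lies at 235 CPM.

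TXNIP, which encodes the thioredoxin-interacting protein (chromosome 1, 145992435 to 145996600 on GRCh38, minus strand), stood at 53.6, 56.8 and 51.8 CPM in libraries 1, 2 and 3 with asparagine. The depleted libraries held 220.5, 263 and 259.7 CPM. The 3 depleted values lay close together and far above the other group, with library 1 the lowest of them. The level rose 4.58-fold from 54.1 ± 2.57 to 248 ± 23.6 CPM (SD, n = 3 libraries in each group). The log2 fold change was 2.17 (SE 0.12, limma adjusted p = 0.000104). It was 1.89 after the GC correction and 2.25 without depleted library 1. By log2 fold change TXNIP was at place 136 from the top of the 11892 genes.

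TXNIP is known to be transcribed through MondoA (MLXIP) and its partner MLX, which bind repeated E-box-like elements close to its start. The windows that follow show this stretch for the 3 genes with a match to a motif searched, with the matches in capitals. Each is the sense strand of the gene from base -170 to base -31 before the RefSeq start (GRCh38.p14, RefSeq sequence): TXNIP at chr1:145996610-145996749 on the minus strand, TXNRD1 at chr12:104215609-104215748 on the plus strand and PRDX3 at chr10:119178843-119178982 on the minus strand.
TXNIP: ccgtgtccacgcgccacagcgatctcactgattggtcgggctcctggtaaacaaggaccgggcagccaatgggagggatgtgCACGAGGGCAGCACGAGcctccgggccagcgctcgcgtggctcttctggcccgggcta
TXNRD1: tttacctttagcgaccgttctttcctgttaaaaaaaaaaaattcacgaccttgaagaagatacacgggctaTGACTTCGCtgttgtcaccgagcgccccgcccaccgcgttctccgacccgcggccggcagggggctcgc
PRDX3: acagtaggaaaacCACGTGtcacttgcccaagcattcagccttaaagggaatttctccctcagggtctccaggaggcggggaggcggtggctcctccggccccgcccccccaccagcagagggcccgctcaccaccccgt

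In the TXNIP window the capitals mark CACGAG, 5 bases of any kind and a repeat of CACGAG at bases -88 to -72, a pattern that was searched only after the window had been read. It occurred, on either strand, in 2 of 27305 promoter windows of the same length (250 bases before to 50 after the start), those of TXNIP and KCTD5. The carbohydrate response element searched first, CACGNG and CNCGTG with 5 bases between them, had no match there and occurred in 7 of 27305 windows. In TXNRD1 the capitals mark the antioxidant response element TGACNNNGC at bases -99 to -91, and a second match lies at -8 to 1 on the other strand, outside the stretch shown. This pattern occurred in 13.6% of all windows. In PRDX3 they mark the E-box CACGTG at -157 to -152, found in 7.43% of windows. Windows were at hand for 6 of the 10 symbols, and those of TXN, PRDX2 and PRDX5 held no match to these motifs. Also searched, with no match in these 6 windows, were TGACTCA (AP-1, 4.92% of windows), TGATGNAAT (C/EBP-ATF, 1.02%) and the heat shock element (GAANNTTC, 2 bases of any kind and GAA, 0.487%). All motifs were searched on both strands, and a TGACTCA or CACGTG can overlap a longer pattern. A match describes the letters in the window and not the binding of a factor.

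The genes nearest to TXNIP in pattern, by Euclidean distance over the 6 libraries of log2(CPM + 1) relative to the mean with asparagine, were BTG1, PTPDC1 and HLCS among 10543 others with a mean of at least 5 CPM. BTG1, an antiproliferative gene, lay at a distance of 0.07 and went from 79.2 ± 3.33 to 367 ± 26.7 CPM. PTPDC1 (distance 0.19) went from 10.6 ± 0.589 to 52.5 ± 8.25 CPM. HLCS, the holocarboxylase synthetase gene (distance 0.21), went from 17.7 ± 0.797 to 89.3 ± 7.79 CPM.

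TXN, the cytosolic thioredoxin gene (chromosome 9, 110243811 to 110256640, minus strand), moved the other way. With asparagine it stood at 83.8, 85.4 and 89.5 CPM, and in depleted libraries 1, 2 and 3 at 36.4, 30.5 and 31.7 CPM. The groups were far apart, and the 3 depleted values lay close together. It fell 2.62-fold from 86.2 ± 2.94 to 32.9 ± 3.11 CPM, or -1.37 in log2 fold change (SE 0.12, limma adjusted p = 0.000457). The fall was -1.95 after the GC correction and -2.30 with that correction and without depleted library 1. TXN transcripts had the lowest GC content of the 9 genes, 39.2%.

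Inhibitor and target thus moved apart. TXNIP CPM divided by TXN CPM, a ratio not scaled for length, was 0.639, 0.665 and 0.578 with asparagine and 6.06, 8.62 and 8.20 in the depleted libraries. The ratio was higher in 3 of 3 depleted libraries, at 7.63 ± 1.37 against 0.628 ± 0.0444. An exact two-sided permutation test gave p = 0.1, the smallest that 3 against 3 libraries allow, or 0.125 adjusted over the 5 ratios computed. Each of the genes had already separated the groups, in opposite directions, so this outcome was fixed and adds no support.

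TXNRD1, the cytosolic thioredoxin reductase gene whose product is a selenoprotein (chromosome 12, 104215779 to 104350305, plus strand), fell less than TXN. It stood at 366, 389.9 and 409 CPM with asparagine and at 199.9, 270.1 and 263 CPM in depleted libraries 1, 2 and 3. Here library 1 had the lowest value, below libraries 2 and 3. The level fell 1.59-fold from 388 ± 21.8 to 244 ± 38.7 CPM, or -0.68 in log2 fold change (SE 0.15, limma adjusted p = 0.00949). Over 22 alternative settings the log2 fold change was -0.97 to -0.48 and the adjusted p 2.62e-07 to 0.0451. The ratio of TXNRD1 to TXN CPM was 4.36 to 4.57 with asparagine and 5.49, 8.86 and 8.30 in the depleted libraries (exact permutation p = 0.1, adjusted 0.125). The 3 depleted ratios lay above all ratios with asparagine, library 1 by the least.

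The typical peroxiredoxins of the cytosol, PRDX1 and PRDX2, both fell. PRDX1 (chromosome 1, 45511036 to 45523047, minus strand) stood at 1553, 1634 and 1569 CPM with asparagine and at 576, 555 and 558 CPM in the depleted libraries. The 3 depleted libraries lay close together, library 1 included. The level fell 2.82-fold from 1585 ± 42.8 to 563 ± 11.4 CPM, or -1.49 in log2 fold change (SE 0.09, limma adjusted p = 0.000138), and the value was -1.51 without depleted library 1 and -1.62 after the GC correction.

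PRDX2 (chromosome 19, 12796820 to 12801859, minus strand), known as an abundant red cell peroxiredoxin that is also made in lymphoid cells, had the largest decrease of the 9 genes by log2 fold change. It stood at 138, 143 and 129 CPM with asparagine and at 44.7, 26.3 and 25.5 CPM in the depleted libraries, with library 1 the highest of these. The level fell 4.24-fold from 136 ± 6.92 to 32.2 ± 10.8 CPM, or -2.10 in log2 fold change (SE 0.22, limma adjusted p = 0.000752), at place 109 from the bottom of all genes tested. It was -1.65 after the GC correction and -2.35 without depleted library 1. After the GC correction the lowest of the 9 values was that of TXN. The ratio of PRDX1 to PRDX2 CPM was 11.3, 11.4 and 12.2 with asparagine. In the depleted libraries it was 12.9, 21.1 and 21.9 (exact permutation p = 0.1, adjusted 0.125), so that library 1 was close to the other group.

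PRDX3, the mitochondrial peroxiredoxin gene (chromosome 10, 119167703 to 119178833, minus strand), stood at 225, 245 and 232 CPM with asparagine. The depleted libraries held 104, 133 and 134 CPM, and library 1 was the lowest. The level fell 1.89-fold from 234 ± 10.4 to 124 ± 17.2 CPM, or -0.92 in log2 fold change (SE 0.14, limma adjusted p = 0.00241). It was -1.43 after the GC correction, with a transcript GC content of 40.7%. The genes of the mitochondrial thioredoxin and its reductase, named here after their values were seen, did not pass the test. TXN2 had 109.8, 115 and 100.8 CPM with asparagine and 125, 83.4 and 73.8 CPM in the depleted libraries (log2 fold change -0.24, adjusted p = 0.357). It passed as lower when depleted library 1 was left out (-0.46, adjusted p = 0.00067), while the GC correction turned its direction (0.11, adjusted p = 0.222). TXNRD2 had 75.0, 75.7 and 66.6 CPM and 83.8, 44.1 and 47.5 CPM (-0.36, adjusted p = 0.251), with -0.65 (adjusted p = 6.28e-05) without depleted library 1 and 0.17 (adjusted p = 0.0607) after the GC correction.

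PRDX6, whose product uses glutathione in place of thioredoxin and also has phospholipase activity (chromosome 1, 173477266 to 173488807, plus strand), stood at 164, 174 and 167 CPM with asparagine. In the depleted libraries it stood at 51.8, 58.2 and 55.7 CPM, a narrow range well below. It fell 3.05-fold from 168 ± 5.50 to 55.2 ± 3.20 CPM, or -1.59 in log2 fold change (SE 0.11, limma adjusted p = 0.000212). The ratio of PRDX1 to PRDX6 CPM was 9.37 to 9.50 in the group with asparagine and 9.54 to 11.1 in the depleted group, so that it was slightly higher in 3 of 3 depleted libraries (exact permutation p = 0.1, adjusted 0.125). The ratio of PRDX1 to TXN was 17.5 to 19.1 and 15.8 to 18.2, and these ranges overlapped (exact permutation p = 0.3, adjusted 0.3).

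PRDX5, an atypical peroxiredoxin found in mitochondria, peroxisomes and cytosol (chromosome 11, 64318088 to 64321811, plus strand), was the gene of the 9 that did not pass the test. It stood at 195, 207 and 199.5 CPM with asparagine and at 235, 108 and 95.9 CPM in depleted libraries 1, 2 and 3. Library 1 thus lay above all libraries with asparagine and libraries 2 and 3 lay below them. The means were 200.4 ± 6.05 and 146 ± 76.9 CPM, and the log2 fold change was -0.57 (95% interval -1.34 to 0.19, limma adjusted p = 0.173). Without depleted library 1 it was -0.97 (adjusted p = 1.05e-06). The GC correction brought it to -0.03 (adjusted p = 0.844), and both together to -0.20 (adjusted p = 0.022). When the GC slope of each library was entered as a covariate it was 0.24 (adjusted p = 0.0613), so that its direction turned. PRDX5 transcripts had the highest GC content of the 9 genes, 60.7%, in the highest GC class, where libraries 2 and 3 lay low as a whole. The part of GC content in this result was not tested.

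**Figure D2:**
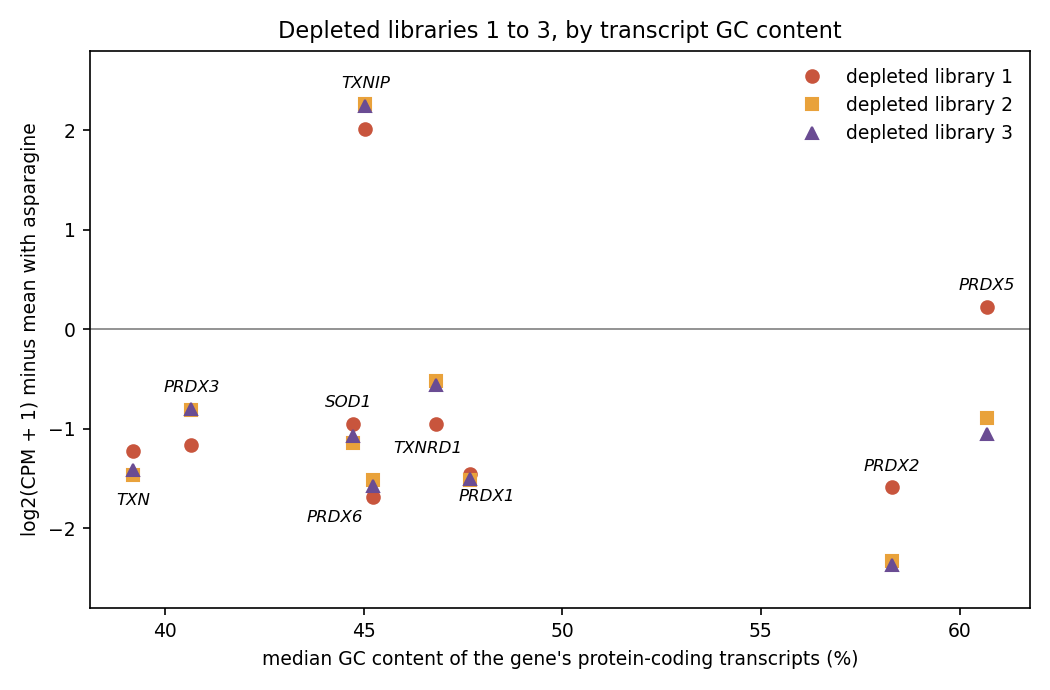
Log2(CPM + 1) minus the mean with asparagine (y axis) of each gene in depleted libraries 1, 2 and 3, against the median GC content of its protein-coding transcripts in percent (x axis). The 3 libraries lie close together for PRDX1 and PRDX6, while library 1 lies above the other two for PRDX2 and PRDX5, at 58.3% and 60.7% GC, and also for TXN and SOD1, at 39.2% and 44.7% GC, and below them for TXNIP, TXNRD1 and PRDX3.

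SOD1, the copper-zinc superoxide dismutase gene (chromosome 21, 31659622 to 31668931, plus strand), whose product turns superoxide into hydrogen peroxide, stood at 291, 312 and 322 CPM with asparagine. The depleted libraries held 159, 139 and 146 CPM, all below the other group. It fell 2.09-fold from 308 ± 15.7 to 148 ± 10.1 CPM, or -1.06 in log2 fold change (SE 0.11, limma adjusted p = 0.000739), and the value was -1.36 after the GC correction. SOD2, the mitochondrial manganese enzyme, had a log2 fold change of similar size, as given with its list.

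**Figure D3:**
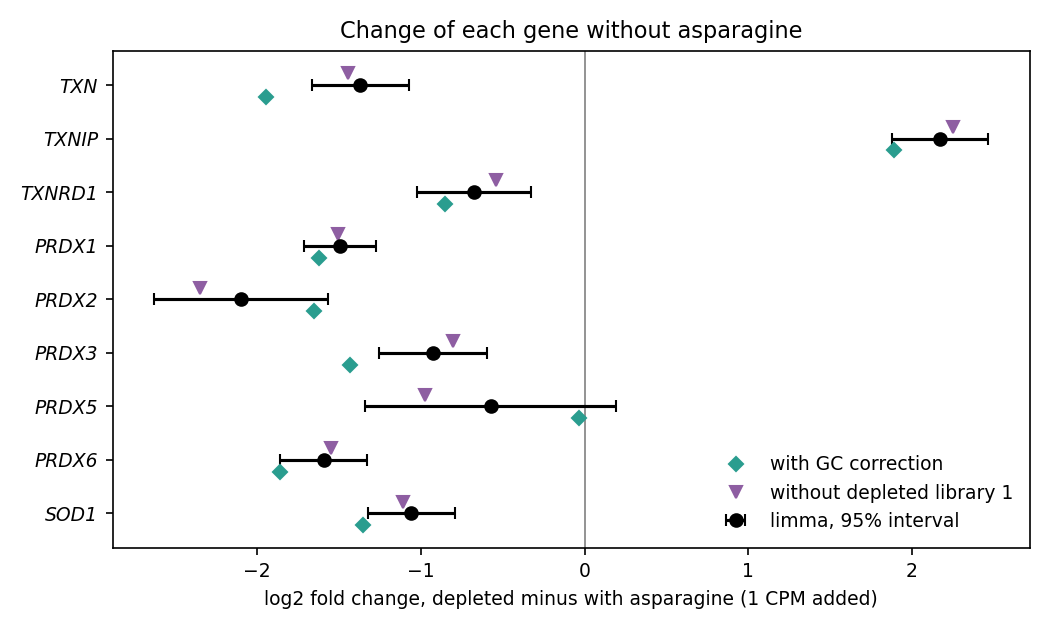
Log2 fold change of each gene (x axis, depleted minus with asparagine, 1 CPM added). Black points and bars are the limma estimate and its 95% interval, green diamonds the value after the GC correction and purple triangles the value without depleted library 1. Of the 9 intervals, that of PRDX5 reaches across 0, and TXNIP stands alone on the right at 2.17.

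Counted reads of some of these genes may be shared with other loci. GENCODE 29 lists 7 pseudogenes named after TXN, 4 after PRDX2, 4 after PRDX3, 3 after SOD1 and 1 after PRDX1, and 0 of these are rows of the table. PRDX2 overlaps HOOK2 on the same strand, whose levels were 48.8 to 52.4 CPM in the group with asparagine and 29.8 to 60.3 in the depleted group. PRDX1 overlaps MMACHC on the other strand, at 10.6 to 11.6 and 5.55 to 7.51 CPM. On the same strand, TXNRD1 also overlaps EID3 and the pseudogene RPL18AP3, and SOD1 the small nucleolar RNA RF01241, none of them rows of the table. Strand cannot separate reads shared with genes on the same strand. GENCODE 29 also places antisense genes over PRDX2, TXNRD1 and SOD1. Since no strand setting is stated, reads shared with these or with MMACHC cannot be told apart either. Overlap here is of whole gene spans, and whether exons are shared was not examined. The values rest on 858 reads (the lowest, PRDX2) to 78718 reads (PRDX1) per library.

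Per kilobase of transcript, PRDX1 was the most abundant of the 9 in both groups, at 1994 ± 53.8 CPM per kb with asparagine and 708 ± 14.3 in the depleted libraries. With asparagine it was followed by SOD1 (337 ± 17.1) and PRDX5 (336 ± 10.1), whose library ranges overlapped. TXNRD1 came next at 201 ± 11.3. PRDX2 (154 ± 7.81) and PRDX3 (147 ± 6.54) overlapped each other. TXN (115 ± 3.90), PRDX6 (96.2 ± 3.14) and TXNIP (26.0 ± 1.24) each lay below without overlap. The order of the depleted libraries was different, with TXNIP, the last with asparagine, in the fifth place at 119 ± 11.4 CPM per kb. TXNIP there overlapped TXNRD1 (126 ± 20.0) and lay above PRDX3 (77.6 ± 10.8), TXN (43.7 ± 4.14), PRDX2 (36.3 ± 12.3) and PRDX6 (31.5 ± 1.83). Neighbours among the last 3 overlapped, as did PRDX5 (245 ± 129) and SOD1 (161 ± 11.0). Each length is a median over annotated protein-coding transcripts, and another choice of transcript could change these orders. The SDs cover the spread of the libraries alone.

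**Figure D4:**
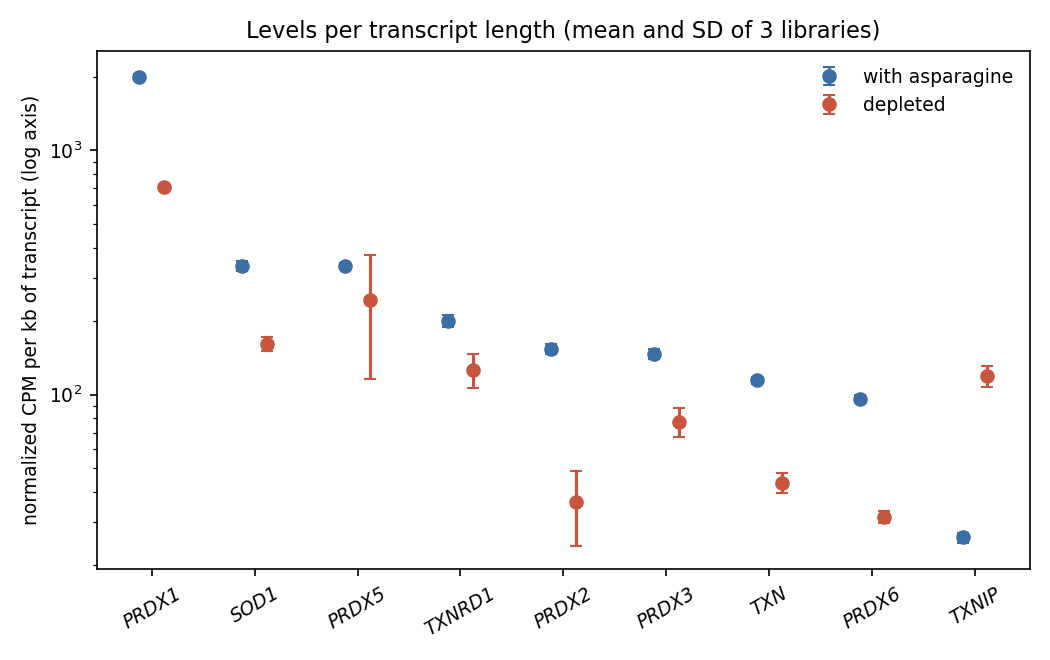
Level of each gene in normalized CPM per kb of transcript (y axis, log scale), mean and SD of 3 libraries, with asparagine (blue) and depleted (red). PRDX1 is highest in both groups, and TXNIP is the gene whose depleted level lies above its level with asparagine, at 119 against 26.0 CPM per kb.

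Genes around this system were taken from 4 lists, whose counts stand against 26.2% lower and 25.1% higher among all genes tested, and 34.3% and 35.2% after the GC correction. Of 21 genes for other thioredoxin, peroxiredoxin, glutaredoxin, sestrin and methionine sulfoxide reductase proteins, 19 were tested, of which 7 fell and 3 rose (median log2 fold change -0.18, and -0.09 after the GC correction with 8 lower and 4 higher). Those that rose were SESN2, SESN3 and TXNDC9. SESN2, a stress-induced gene whose product restrains mTORC1, rose 15.2-fold from 16.6 ± 0.0349 to 253 ± 66.1 CPM (SD, n = 3 in each group here and for the genes that follow) (log2 fold change 3.82, limma adjusted p = 5.72e-05). SESN3 rose 4.03-fold to 17.2 ± 8.28 CPM (adjusted p = 0.0139), and TXNDC9 1.92-fold to 29.6 ± 10.7 CPM (log2 fold change 0.83, adjusted p = 0.0469, and 0.27 after the GC correction). For TXNDC9, depleted library 1 held 17.2 CPM, near the 14.1 to 16.4 CPM with asparagine, and depleted libraries 2 and 3 held 35.5 and 36.0 CPM. PRDX4, the peroxiredoxin of the endoplasmic reticulum, fell 2.77-fold from 98.1 ± 2.96 to 35.4 ± 2.20 CPM (adjusted p = 0.000303), and MSRB1, a methionine sulfoxide reductase gene, 2.65-fold to 9.99 ± 2.63 CPM (log2 fold change -1.34, adjusted p = 0.0019, and -0.87 after the GC correction). SRXN1, which repairs overoxidized peroxiredoxins and was named after its value was seen, fell 1.91-fold to 4.73 ± 0.863 CPM (adjusted p = 0.00965). NXN, the nucleoredoxin gene, also named after its value was seen, was among the 7 that fell (-0.56, adjusted p = 0.0324) but did not pass with the GC correction (-0.09, adjusted p = 0.644). The number of genes that rose was 1 without library 1 or without library 2 with asparagine, 5 without depleted library 1, and 2 with trimmed mean, median ratio or quantile scaling or robust moderation. Over all 11892 genes the number higher was 1756, 1728 and 4812 in the first 3 of these fits, against 2987 with all libraries. Under the scalings and robust moderation it was 2808 to 2962.

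Of 15 genes that handle peroxide, superoxide, heme and iron, 13 were tested, of which 10 fell and 0 rose by limma (10 and 0 at an unadjusted p under 0.05), with a median of -0.63. After the GC correction the median was -0.61, with 10 lower and 2 higher, BLVRB and CCS. GPX1, a glutathione peroxidase gene, went from 488, 502 and 458 CPM to 319, 116 and 117 CPM in the depleted libraries, a fall of 2.62-fold (log2 fold change -1.56, adjusted p = 0.0144, and -0.94 after the GC correction). GPX4, which reduces lipid peroxides, fell 2.08-fold (log2 fold change -1.16, adjusted p = 0.0189, and -0.53 after the GC correction), and in it too depleted library 1 lay between the groups, at 177 CPM against 79.9 and 81.5. SOD2, the mitochondrial superoxide dismutase gene, fell 2.23-fold from 114 ± 4.77 to 51.1 ± 6.69 CPM (log2 fold change -1.15, adjusted p = 0.00103). HMOX2, the constitutive heme oxygenase gene, fell 2.12-fold from 79.3 ± 1.99 to 37.4 ± 11.0 CPM (adjusted p = 0.00524). FTH1, BLVRB and CCS did not pass, with log2 fold changes of -0.24, -0.12 and 0.00 (adjusted p = 0.626, 0.724 and 0.9999). Without depleted library 1 all 3 passed as lower (-0.74, -0.42 and -0.27, adjusted p = 1.75e-05, 0.0052 and 0.0356). After the GC correction BLVRB and CCS passed as higher instead (0.48 and 0.61, adjusted p = 0.00287 and 0.000205), while FTH1 did not pass (-0.00076, adjusted p = 0.9986). FTH1, the ferritin heavy chain gene, had 465 CPM in depleted library 1 and 172 and 154 CPM in libraries 2 and 3. The number that fell was 4 without library 1 or 2 with asparagine, 6 without depleted library 2 and 13 without depleted library 1. Over all 11892 genes the number lower in these fits was 1845, 1814, 1975 and 4913, against 3116 with all libraries.

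The next list joins NRF2 and related factors with NRF2 target genes. Of 22 listed, 21 were tested, of which 10 fell and 4 rose (median -0.47, and -0.39 after the GC correction with 12 lower and 6 higher). Regulators stand on both sides, with NFE2L2, NFE2L1 and BACH1 among those that rose and KEAP1 among those that fell. These counts and medians therefore do not describe the targets alone. NFE2L2, the gene of NRF2 itself, rose 2.56-fold from 55.4 ± 5.82 to 142 ± 33.4 CPM (adjusted p = 0.00267), its relative NFE2L1 3.59-fold from 179.8 ± 3.13 to 646 ± 124 CPM (adjusted p = 0.000336), and BACH1, a repressor of many of the same targets, 1.97-fold to 105 ± 36.9 CPM (log2 fold change 0.91, or 0.51 with the GC correction, adjusted p = 0.0359 without it). For BACH1, depleted library 1 held 63.2 CPM, near the 45.5 to 61.1 CPM with asparagine, and depleted libraries 2 and 3 held 132 and 121 CPM. The other gene that rose was SLC7A11, the cystine-glutamate exchanger, which is also a known ATF4 target, 25.02-fold to 247 ± 112 CPM (adjusted p = 0.000395). TKT, the transketolase gene, fell 5.13-fold from 666 ± 40.3 to 129.8 ± 40.8 CPM (adjusted p = 0.00044), and AKR1B1, an aldose reductase gene, 3.97-fold to 123 ± 30.2 CPM (adjusted p = 0.000435). Chosen after their values were seen, TALDO1 fell 2.87-fold to 119 ± 26.2 CPM, PGD 1.93-fold to 176 ± 35.1 and KEAP1, the inhibitor of NRF2, 2.26-fold to 109 ± 38.6 (adjusted p = 0.000779, 0.00331 and 0.00622). The log2 fold change of KEAP1 was -1.22, and -0.64 after the GC correction. Also named after their values were seen, GCLM, GCLC and SQSTM1 did not pass (0.48, -0.06 and 0.12, limma adjusted p = 0.130, 0.778 and 0.589). GCLM passed as higher without depleted library 1 (0.75) and was -0.06 after the GC correction. GCLC passed as lower after the GC correction (-0.39) and was 0.11 without depleted library 1. SQSTM1 passed as higher after the GC correction (0.70) and was -0.07 without depleted library 1. NQO1, a classic NRF2 target, had 20.9, 23.7 and 18.9 CPM with asparagine and 18.6, 17.8 and 19.7 CPM in the depleted libraries (log2 fold change -0.17, adjusted p = 0.328), and passed as lower after the GC correction (-0.28, adjusted p = 0.0436).

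Of 12 regulators, relatives and partners of TXNIP, 10 were tested, of which 3 rose and 3 fell (median -0.20, and 0.10 after the GC correction with 4 higher and 3 lower), shares close to those of all genes. ARRDC4, the arrestin gene most like TXNIP in its known control by MondoA, went from 8.49, 8.22 and 8.21 CPM to 21.9, 31.4 and 34.5 CPM. It rose 3.52-fold (log2 fold change 1.68, limma adjusted p = 0.00088). ARRDC3 rose 3.28-fold from 4.52 ± 0.797 to 14.8 ± 5.87 CPM (log2 fold change 1.45, adjusted p = 0.00863, and 0.80 after the GC correction), and the glucose transporter gene SLC2A3 2.21-fold from 14.5 ± 0.919 to 32.0 ± 2.87 CPM (adjusted p = 0.00116). The glucose transporter gene SLC2A1 fell 1.60-fold to 42.9 ± 12.1 CPM (adjusted p = 0.0277), MLXIP 1.42-fold to 127 ± 22.1 CPM (adjusted p = 0.0265) and NLRP3, an inflammasome gene, 1.33-fold to 51.1 ± 2.61 CPM (adjusted p = 0.0296). After the GC correction the log2 fold change of SLC2A1 went from -0.70 to -0.37, and that of MLXIP from -0.52 to -0.13, where it no longer passed (adjusted p = 0.0661). These 3 decreases rested on the full set of libraries: 0 genes of the list passed as lower in limma when any library other than depleted library 1 was left out (2 or 3 at an unadjusted p under 0.05), and 5 without depleted library 1. Over all 11892 genes the number lower also changed, from 3116 to between 1814 and 2177 in the former fits and to 4913 in the latter. ARRDC1 and ARRDC2 had log2 fold changes of -0.48 and -0.58 (adjusted p = 0.197 and 0.0686). Both passed as lower without depleted library 1 (-0.81 and -0.83, adjusted p = 2.38e-05 and 5.61e-06), and both turned after the GC correction (0.18 and 0.06), ARRDC1 passing as higher (adjusted p = 0.0484 and 0.379). MLX had 0.09 and MAP3K5, the kinase ASK1 that thioredoxin is known to hold inactive, 0.01 (adjusted p = 0.602 and 0.9503). After the GC correction MAP3K5 passed as lower, at -0.21 (adjusted p = 0.0367), and MLX was at 0.15 (adjusted p = 0.101). Without depleted library 1, MAP3K5 was at 0.06 (adjusted p = 0.549) and MLX at -0.01 (adjusted p = 0.877).

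**Figure D5:**
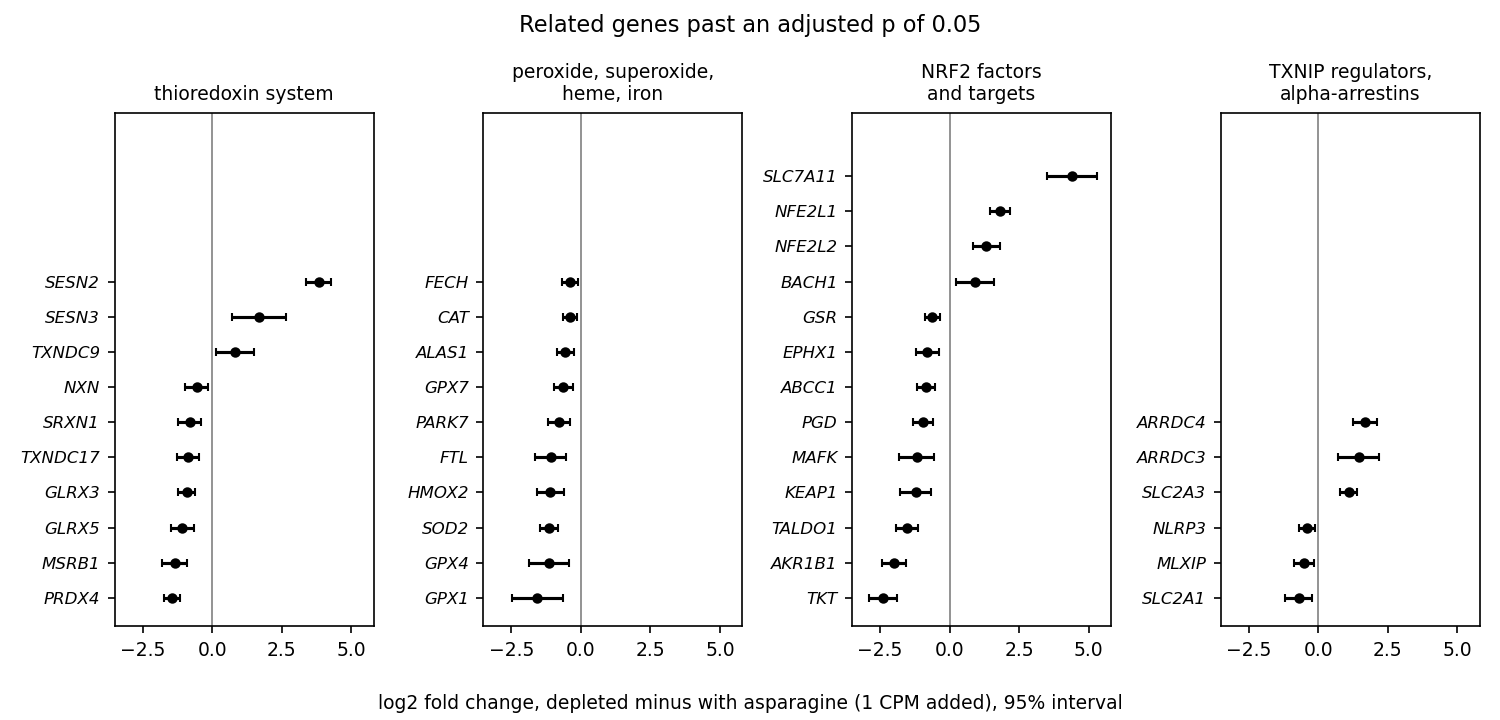
Log2 fold change (x axis, depleted minus with asparagine, 1 CPM added) with its 95% interval for genes of the 4 lists that passed the test, ordered by value within each list. SLC7A11 at 4.39 and SESN2 at 3.82 lie farthest to the right, and in the list of peroxide, superoxide, heme and iron genes all 10 lie below 0.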

How the data were processed

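RNA sequencing libraries of RS4;11 cells, 3 with asparagine and 3 depleted, were compared. The authors used FastQC, STAR, Subread's featureCounts and the build GRCh38, per the submitters' processing notes. Versions, annotation, strand setting, scaling and the filter on low genes are not stated in the sources at hand. The deposited values are a signal per gene, CPM normalized by the authors. The columns did not sum to the same total, with 1018766 to 1031234 CPM with asparagine and 918783 to 952458 CPM in the depleted group. All values were whole multiples of a step per column (100%, tolerance 1e-06), which gave the reads behind them, and 3 reads correspond to 0.0598 to 0.092 CPM. No gene in the table stayed below 0.54 CPM in all libraries. Columns were matched to samples by group and replicate number in their names, and 0 columns were left over.

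Values were analysed as log2(CPM + 1) with limma 3.58.1 in R 4.3.3 for the 11892 genes that reached 1 CPM in 3 or more libraries, with the group as the only term, empirical Bayes moderation with an intensity trend and two-sided Benjamini-Hochberg adjusted p-values at 0.05. Folds are ratios of mean CPM. GC content and length were medians over protein-coding transcripts in GENCODE 29 (95.4% of genes had a value), and the GC correction removed a lowess trend (span 0.3) per library. It takes out any change that follows GC content, whether it arose in the cells or in the libraries, and which of these it removed was not tested. Corrected values are therefore given as an alternative and not as a better estimate. Named genes were all members, up to 4 genes a list, ranked by change, that reached 5 CPM in the higher group, and all of a kind where there were 5 or fewer. A gene of the lists is counted but not reported here by name. The members, lists and tests were chosen with earlier results of these data known. The planned edgeR and DESeq2 alternatives were not run. limma's voom weights on the recovered reads were used as an added alternative.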

Additional observations from a re-analysis of the deposited data

How the results depend on the processing

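Over 22 alternatives for each gene and 23 for each count, the direction and the side of the threshold held for TXN, TXNIP, TXNRD1, PRDX1, PRDX2, PRDX3, PRDX6 and SOD1, with 1 gene higher throughout and 7 or 8 lower. PRDX5 passed as lower at -0.97 without depleted library 1 and at -0.20 with the GC correction added, and reversed to 0.24 when the GC slope was a covariate. The cause was not tested. Leaving out each library in turn gave 1728 to 4812 genes higher and 1814 to 4913 lower over all genes (2987 and 3116 with all libraries), and 7 to 13 higher and 19 to 39 lower over the genes of the 4 lists (10 and 30). The counts over all genes fell by more than 1.5 times without library 1 or 2 with asparagine or depleted library 2 and rose by as much without depleted library 1, and the 19 came without library 1 with asparagine. Without depleted library 1 and with the GC correction, 4486 of all genes were higher. At a threshold of 0.01 there were 1612 and 1703 over all genes and 18 lower in the lists. In the lists 16 genes were higher after the GC correction and 19 when the GC slope was a covariate. Of the 138 values of counts under alternatives, 123 stayed within 1.5 times the main count. The voom weights and the fit to genes with a GC value alone were added after the data were seen. The planned edgeR and DESeq2 fits were not run. The voom fit to the recovered reads gave 2921 genes higher and 3097 lower, and 1 and 7 of the 9 genes. The deviations of same-numbered libraries of the groups correlated at r = 0.083, -0.65 and 0.69 across genes. With so few libraries and values of both signs, whether the numbers pair the libraries cannot be told from these values. With the replicate number as a block, 2824 genes were higher and 2989 lower, and 1 and 7 of the 9 genes. With the block and the GC correction these were 3701 and 3609, and 1 and 7. The number of reads limits little here, since each of the 9 genes had at least 858 reads in each library.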
